A study of Arabidopsis thaliana with 9 samples.

Results

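The 25 loci described here are those whose description in the deposited count table contains "transpos" in any case, of 32833 loci in all. The choice used words and no measured value, and 9978 loci have no description, so it does not take in every transposon of the genome. By their descriptions 11 are of the hAT superfamily, 7 are retrotransposon proteins (4 Gag-Pol-related and 3 of the ORF-1 kind), 3 are MuDR transposases, 2 are of the PIF / Ping-Pong family and 2 are Ptta/En/Spm transposases. Of these, 23 are nuclear and 2, both Gag-Pol-related, are mitochondrial. In sperm cells one Gag-Pol-related locus, AT3G21000, held most of the counts of the set, while in vegetative nuclei nearly all of them came from 3 hAT loci, AT2G16040, AT4G15020 and AT3G22220. Between the sperm groups 9 of the 25 loci could be tested and 0 were called different, where 0.630% of all loci tested were called. Between in vitro sperm and vegetative nuclei 8 could be tested and 6 were called, where 44.9% of all loci tested were. A locus absent from nuclei could pass the filter on low counts only through sperm, and a locus absent from sperm only through nuclei. The 6 calls are therefore read no further.

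Transposons are mobile DNA elements. Retrotransposons move through an RNA copy and code for Gag, the particle protein, and Pol, the protein with protease, reverse transcriptase and integrase; DNA transposons such as hAT, Mutator (MuDR), PIF/Harbinger and En/Spm elements move as DNA, cut out by a transposase. Plants keep most of them silent by DNA methylation, histone marks and small RNAs, and some former transposase genes now serve the host, the so-called domesticated transposases. In Arabidopsis pollen the vegetative nucleus is known for loss of the chromatin remodeller DDM1 and for transcripts and small RNAs of transposons, while the sperm cells keep compact chromatin.

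RNA was measured in 9 Smart-seq2 libraries of Arabidopsis thaliana, 3 in each of 3 groups, sorted by fluorescence from pollen tubes of a single marker line that the labels list as WT. All 3 groups carry its transgenes: MGH3p::MGH3-GFP, a green fusion of the sperm histone MGH3, and ACT11p::H2B-mRFP, a red histone fusion under the promoter of the pollen actin gene ACT11. Plants grew for 8 weeks in short days of 8 h light and then in long days of 16 h light. The first group holds sperm cells from tubes grown in vitro for 6 h, on medium alone. The second holds sperm cells from semi in vivo tubes, which grew for 2 h on pistils of wild type Col-0, emasculated 16 h before use, and for 4 h more after the pistil was cut and laid on medium. The third holds vegetative nuclei from in vitro tubes. Sperm libraries are from whole cells and the third group from nuclei, so cell type and cell compartment cannot be told apart. In such sorted pools, fewer cells that make an RNA and less RNA per cell cannot be told apart either. The labels do not say whether replicates are separate plants or assays; the p-values below therefore reflect the spread among these libraries alone, and that spread may be technical.

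Library totals were 13768069 to 41118337 counts, and 7850 to 26982 loci had counts in a library. The 12 sperm markers, such as HTR10 and DUO1, summed to 19305 to 28249 CPM (counts per 1000000 counts of the library) in the 6 sperm libraries and to 139 to 387 CPM in the nuclei. The 15 vegetative cell markers, such as VEX1 and ANX1, summed to 19850 to 33823 CPM in the nuclei and 34.7 to 73.6 CPM in sperm. The 8 pistil markers reached 18.7 CPM in in vitro sperm library 2, although that group met no pistil, while the remaining sperm libraries ranged from 0.0304 to 4.63 CPM. Nucleus library 2, also from tubes grown without a pistil, was at 5.03 CPM. In vitro library 2 also had the most loci with counts. The 3 green tissue markers were at 0 to 1.26 CPM.

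Counts in at least 1 sperm library were found for 23 of the 25 loci (92.0%), close to the 90.0% of all loci. In the vegetative nuclei, 6 of the 25 had any counts (24.0%), against 56.8% of all loci. A set of 17 had counts in sperm and none in nuclei, which is 68.0% of the set against 34.4% of all loci, and 0 had counts in nuclei alone. These shares draw on 6 sperm libraries, with counts for 11640 to 26982 loci, but on only 3 nucleus libraries, with 7850 to 16217. Most of the set had low counts, and the shares of all loci were not matched for level. The differences from all loci are therefore not read as a trait of the set. The 2 mitochondrial loci, ATMG00240 (ORF111A) and ATMG00300 (ORF145A), were at 0 in all 9 libraries. A count of 0 allows up to 3 counts, or 0.0730 to 0.218 CPM depending on the library; these limits cover counting error only, since PCR copies in libraries without molecular identifiers are not independent molecules.

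By library, in vitro sperm had counts for 15, 19 and 11 of the 25 loci, semi in vivo sperm for 13, 11 and 7, and vegetative nuclei for 3, 5 and 6. The 6 sperm libraries all lay above the 3 nucleus libraries, by a single locus between the lowest sperm library and the highest nucleus library, and the sperm groups overlapped. Thinning each library to 13768069 counts, the smallest total, kept that order, with 6.80 loci in semi in vivo library 3 as the lowest sperm value and 5.01 in nucleus library 3 as the highest nucleus value. The libraries with many of these loci were those with many loci of any kind: in vitro library 2 had counts for 26982 loci and semi in vivo library 3 for 11640. At these numbers nucleus library 2, with 16217 loci, held fewer of the set than semi in vivo library 3.

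**Figure D1:**
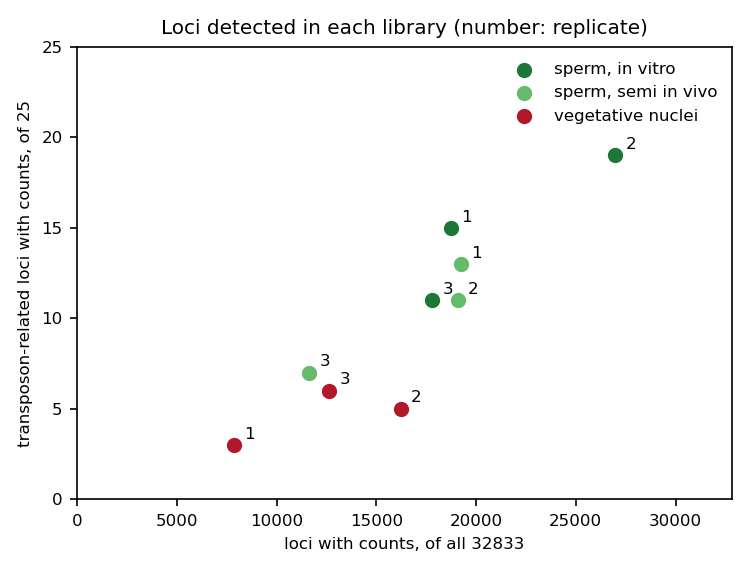
Transposon-related loci with counts (vertical axis, of 25) against all loci with counts (horizontal axis, of 32833), 1 point per library, numbered by replicate. The nucleus libraries hold 3 to 6 of the 25 loci and the sperm libraries 7 to 19, and nucleus library 2 lies below semi in vivo sperm library 3 although more loci in all were counted in it.

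Most of the set was weakly and patchily counted. Under 1 CPM in every library were 9 loci, and 4 exceeded 10 CPM in any. Counts in all 6 sperm libraries were found for 5 loci (20.0%, against 26.7% of all loci), in 2 to 5 of them for 13 and in 1 of them for 5. Of the 17 loci with at least 10 counts in a sperm library, 10 (58.8%) were at 0 in another library of the same group. Over all loci this was so for 57.9%, so the patchiness of the set was near that of the whole table. In vitro library 2, which had the highest pistil marker sum, held most in vitro counts of several loci. It held 70 of 70 for AT1G64260, 68 of 79 for AT4G08267, 62 of 65 for AT1G40087 and 46 of 47 for AT3G13010. It held fewer for others, such as AT3G13020 (18 of 113), AT3G20980 (49 of 131) and AT3G55350 (2 of 27). Whether the counts of that library came from sperm cells alone was not tested.

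**Figure D2:**
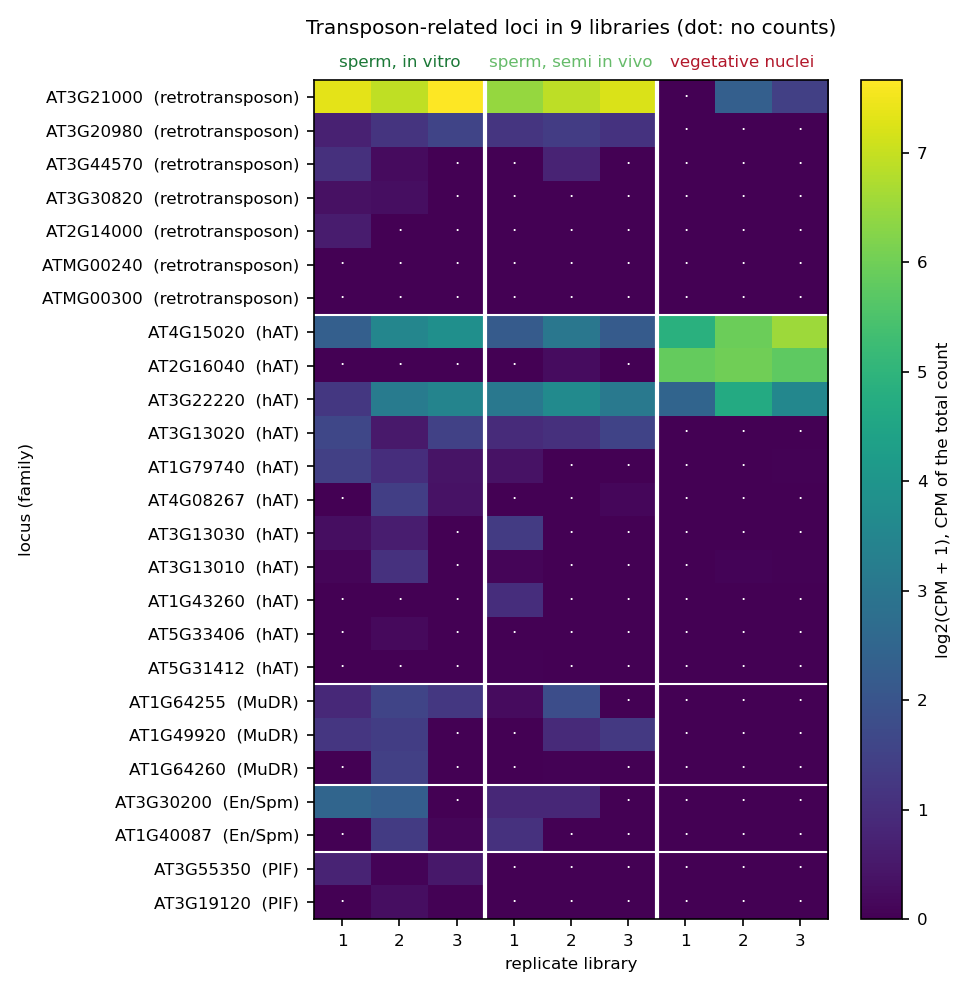
Level of each of the 25 loci (rows, grouped by family) in each of the 9 libraries (columns, grouped by sample group) as log2(CPM + 1), with a dot where a locus had no counts. AT3G21000 fills the sperm columns, AT2G16040 and AT4G15020 the nucleus columns, and most other cells are at or near 0.

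As a share of all counts, the set summed to 182, 157 and 231 CPM in in vitro sperm, 104, 146 and 166 CPM in semi in vivo sperm and 89.2, 153 and 159 CPM in vegetative nuclei. The 3 groups overlapped in this sum, but that depended on the scaling. With TMM factors of all 9 libraries the nuclei were at 69.0, 90.8 and 98.1 CPM, below every sperm library (134 to 308 CPM). Without AT3G21000 the order turned round, with 89.2 to 157 CPM in nuclei and 15.7 to 36.2 CPM in sperm by library totals. That follows from the share AT3G21000 held in sperm, and the main loci of nuclei were not left out in the same way. The loci behind the sum differed: AT3G21000 held 83.9% of the counts of the set in in vitro sperm (77.0% to 89.3% by library), 85.3% in semi in vivo sperm (81.7% to 90.5%) and 1.72% in nuclei. In nuclei AT4G15020 held 46.2% (31.2% to 58.2% by library), AT2G16040 40.9% (33.9% to 63.7%) and AT3G22220 11.1% (5.13% to 16.0%). AT2G16040 led in nucleus libraries 1 and 2 and AT4G15020 in library 3. Read by family, hAT loci held 98.3% of the counts of the set in nuclei and 11.6% in each sperm group.

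**Figure D3:**
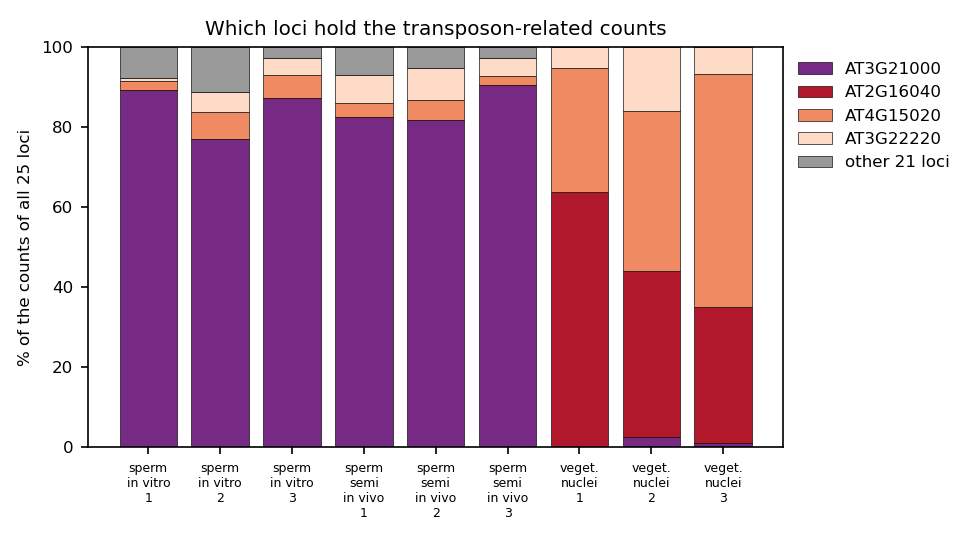
Share of the counts of all 25 loci held by each of the 4 loci over 10 CPM and by the other 21, for each library (1 bar per library, percent on the vertical axis). AT3G21000 makes up 77.0% to 90.5% of each sperm bar, and hAT loci make up 98.3% of the nucleus counts.

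AT3G21000 codes for a Gag-Pol-related protein and is the best protein match of its relative on the list, AT3G20980, in the RefSeq annotation. Its counts were 2355, 4909 and 7396 in in vitro sperm, 2057, 4896 and 4934 in semi in vivo sperm and 0, 141 and 47 in nuclei. In CPM these were 163, 121 and 202, then 85.7, 119 and 150, then 0, 4.01 and 1.72. Every sperm library lay far above every nucleus library, and the sperm groups overlapped. After TMM scaling, a correction for library composition, the means were 225 ± 62.2 CPM in in vitro sperm and 1.27 ± 1.32 CPM in nuclei (SD, n = 3 each). That is a log2 fold change of 7.44 (SE 1.52), or 174-fold higher in sperm, with an adjusted p of 0.00919 in edgeR's quasi-likelihood test with Benjamini-Hochberg adjustment, the test behind each adjusted p of a comparison across all loci unless another is named. A non-coding RNA gene, AT3G04045, overlaps AT3G21000 and libraries of this kind keep no strand; its own group means were 0.058 CPM in in vitro sperm, 0.125 CPM in semi in vivo sperm and 0 in nuclei.

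The trace of AT3G21000 in nuclei can be set beside that of the sperm markers. In the 3 nucleus libraries AT3G21000 stood at 0%, 2.86% and 1.23% of its sperm mean, and the summed sperm markers at 1.61%, 1.60% and 0.577% of theirs. Both ranges are low and overlap, but they do not follow each other by library, since nucleus library 1 held sperm marker counts and none of AT3G21000. The part of sperm RNA in the counts of nuclei was not tested.

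AT3G20980, the other nuclear Gag-Pol-related locus, had 9, 49 and 73 counts in in vitro sperm, 30, 65 and 39 in semi in vivo sperm and none in nuclei. All 6 sperm libraries held it and no nucleus library did. Against 3 counts over the nuclei its mean in in vitro sperm was 68.3-fold higher, at 1.86 ± 1.12 TMM-scaled CPM (SD, n = 3). That fold leaves out the spread among the sperm libraries. The edgeR adjusted p was 0.0209, but without counts in nuclei the locus could pass the filter on low counts only through sperm.

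The ORF-1 loci code for the first protein of a retrotransposon and were near the limit of detection. AT3G44570 had 16, 7 and 0 counts in in vitro sperm and 0, 29 and 0 in semi in vivo sperm. AT3G30820 had 4, 9 and 0, and AT2G14000 7, 0 and 0, in in vitro sperm. The latter pair had no counts in semi in vivo sperm, and no ORF-1 locus had any in nuclei; none of them passed the filter on low counts for a test.

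AT2G16040 codes for a protein with the dimerisation domain of hAT transposases, and its RefSeq record notes expression in the male gametophyte and pollen tube. It had 782, 2216 and 1470 counts in nuclei, or 56.8, 63.0 and 53.8 CPM, a narrow range. It had no counts in in vitro sperm and 0, 8 and 0 in semi in vivo sperm. Nuclei and sperm were thus fully apart, the 8 counts of semi in vivo library 2 being 0.195 CPM. The mean of AT2G16040 in nuclei, 42.1 ± 6.00 TMM-scaled CPM (SD, n = 3), was 881-fold above 3 counts over in vitro sperm. The edgeR adjusted p was 0.00168, but without counts in in vitro sperm the locus could pass the filter on low counts only through nuclei. The summed vegetative cell markers in sperm were at 0.121% to 0.256% of their mean in nuclei, while AT2G16040 was at 0.336% of its own in semi in vivo library 2 and at 0 in the other sperm libraries.

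The pattern of AT2G16040 was shared by the gene next to it. AT2G16030, described as a methyltransferase superfamily protein, had 113, 253 and 155 CPM in nuclei and 0 to 0.463 CPM in the 6 sperm libraries. These neighbours were chosen for mention after their values were seen. AT2G06500, the best protein match of AT2G16040 and not on the list, had 8 counts in nucleus library 2 and 2, 29 and 0 counts in in vitro sperm.

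AT4G15020 and AT3G22220 are each other's best protein match and, in the RefSeq annotation, carry a BED-type zinc finger, which binds DNA, and a hAT dimerisation domain. AT4G15020 had 58, 423 and 476 counts in in vitro sperm, 87, 297 and 118 in semi in vivo sperm and 383, 2144 and 2528 in nuclei. In CPM these were 4.01, 10.4 and 13.0, then 3.62, 7.22 and 3.59, then 27.8, 61.0 and 92.5, so that every nucleus library exceeded every sperm library. The log2 fold change of in vitro sperm against nuclei was -1.64 (SE 0.78) and missed the threshold, with an edgeR adjusted p of 0.129. It turned on the scaling and on single libraries: with upper-quartile factors it was -2.16 (adjusted p 0.0371), and without nucleus library 1 it was -2.73 (adjusted p 0.0175).

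AT3G22220 had 1.38, 8.17 and 9.92 CPM in in vitro sperm, 7.33, 11.6 and 7.51 CPM in semi in vivo sperm and 4.58, 24.5 and 10.8 CPM in nuclei. The 3 groups overlapped. Its log2 fold change of in vitro sperm against nuclei was 0.11 (SE 1.03, edgeR adjusted p 0.942), and its sign changed with the scaling, to -0.42 with upper-quartile factors.

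**Figure D4:**
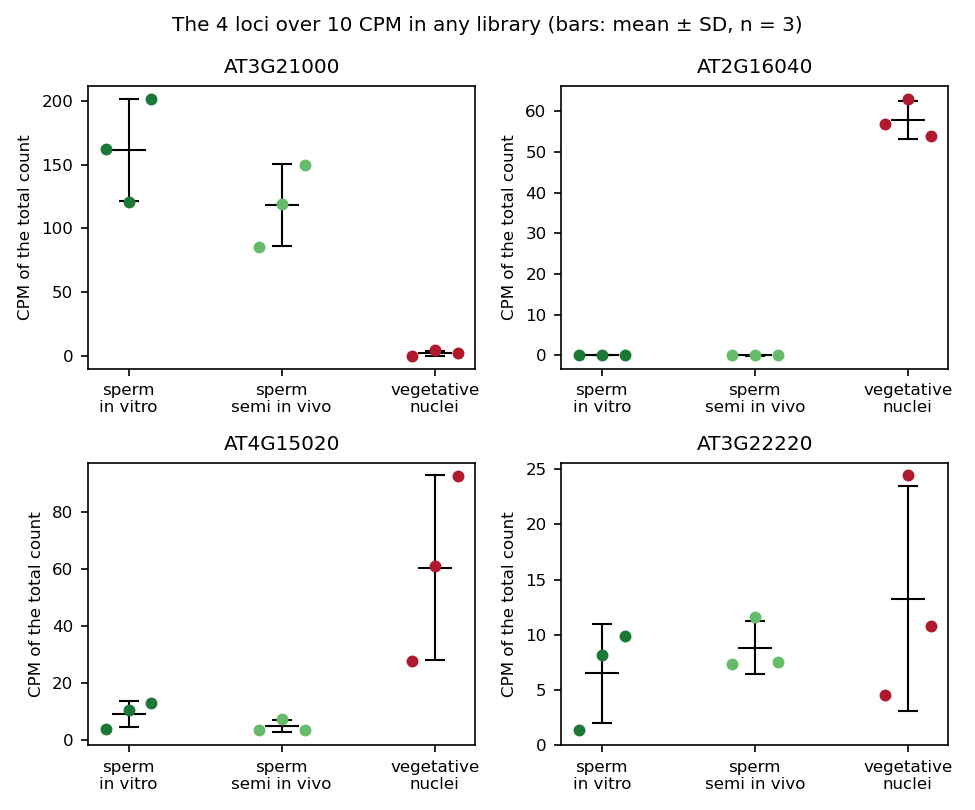
CPM of the 4 loci that exceeded 10 CPM in any library, by group; points are libraries in replicate order, the short line is the mean and the bars are SD (n = 3). AT3G21000 is high in both sperm groups, AT2G16040 is high in nuclei and at or near 0 in sperm, AT4G15020 is higher in every nucleus library than in any sperm library, and AT3G22220 overlaps in all 3 groups.

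The ratio of these relatives within a library needs no scaling. AT4G15020 had 2.90, 1.28 and 1.31 counts per count of AT3G22220 in in vitro sperm, 0.494, 0.624 and 0.478 in semi in vivo sperm and 6.08, 2.49 and 8.60 in nuclei. The ratio was above 1 in every in vitro sperm and nucleus library and below 1 in every semi in vivo library. On the log2 scale the difference of semi in vivo from in vitro sperm was -1.68, without overlap and with a two-sided exact permutation p of 0.1, the smallest that 3 against 3 allows. The differences from nuclei were -1.58 for in vitro sperm (exact permutation p 0.2, groups overlapping) and -3.26 for semi in vivo sperm (exact permutation p 0.1, no overlap). Adjusted over these 3 comparisons the exact permutation p-values were 0.15, 0.2 and 0.15. This ratio was chosen after its values were seen, and reads of such similar genes may be split between them, as the treatment of reads with several matches is not given in the sources used here.

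The remaining hAT loci had low counts, nearly all in sperm. AT3G13020, which stands beside its relatives AT3G13010 and AT3G13030, had 30, 18 and 65 counts in in vitro sperm, 22, 44 and 63 in semi in vivo sperm and none in nuclei. AT3G13020 was thus found in all 6 sperm libraries. Its mean in in vitro sperm, 1.89 ± 1.02 TMM-scaled CPM (SD, n = 3), was 69.1-fold above 3 counts over the nuclei. The edgeR adjusted p was 0.0206, again for a locus that could pass the filter on low counts only through sperm. Its neighbours were patchy: AT3G13010 had 1, 46 and 0 counts in in vitro sperm, 2, 0 and 0 in semi in vivo sperm and 0, 2 and 1 in nuclei, and AT3G13030 had 3, 22 and 0, then 36, 0 and 0, and none in nuclei.

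AT1G79740, another locus with zinc finger and hAT dimerisation domains, had 25, 40 and 12 counts in in vitro sperm, 7, 0 and 0 in semi in vivo sperm and 0, 0 and 1 in nuclei. In vitro sperm lay above both other groups, but only narrowly above semi in vivo sperm. The lowest in vitro library was at 0.327 CPM and the highest semi in vivo library at 0.292 CPM. The difference between the sperm groups was not called (edgeR adjusted p 0.919). With 77 counts against 1, divided by the TMM-scaled library totals of each group, it was 135-fold higher in in vitro sperm than in nuclei (exact 95% interval 23.5 to 5397, counting error only), and the edgeR adjusted p was 0.0248. With 1 count in nuclei, AT1G79740 too could pass the filter on low counts only through sperm. The gene overlaps AT1G79730 (ELF7), which ran the other way, with group means of 0.27 CPM in in vitro sperm and 8.78 CPM in nuclei. Next to it lies AT1G79750, an NADP-malic enzyme gene, at 335 CPM in in vitro sperm and 36.2 CPM in nuclei; reads that belong to such neighbours cannot be told apart by strand.

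Of the other hAT loci, AT4G08267 had 0, 68 and 11 counts in in vitro sperm and 0, 0 and 3 in semi in vivo sperm. AT1G43260 had 24 counts, all in semi in vivo library 1. AT5G33406 had 6 counts in in vitro library 2 and AT5G31412 a single count in semi in vivo library 1. None of these was counted in nuclei or passed the filter for a test.

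The MuDR loci code for transposases of the Mutator kind with a SWIM zinc finger. AT1G64255 had 12, 81 and 51 counts in in vitro sperm, 4, 104 and 0 in semi in vivo sperm and none in nuclei. Its mean in in vitro sperm, 2.08 ± 1.16 TMM-scaled CPM (SD, n = 3), was 76.1-fold above 3 counts over the nuclei. The edgeR adjusted p was 0.0198, but AT1G64255 could pass the filter on low counts only through sperm. It was missing from 1 semi in vivo library. Its neighbour AT1G64260 had 70 counts in in vitro library 2, 1 count in semi in vivo library 2 and none elsewhere. AT1G49920 had 19, 65 and 0 counts in in vitro sperm, 0, 37 and 47 in semi in vivo sperm and none in nuclei, and so was at 0 in 1 library of each sperm group.

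The En/Spm and PIF loci were likewise not counted in nuclei. AT3G30200, a Ptta/En/Spm transposase, had 67, 158 and 0 counts in in vitro sperm and 19, 33 and 0 in semi in vivo sperm. Its relative AT1G40087 had 0, 62 and 3, then 27, 0 and 0. AT3G55350, of the PIF / Ping-Pong family with a Harbinger-derived nuclease domain, had 10, 2 and 15 counts in in vitro sperm and none in semi in vivo sperm, and AT3G19120 of the same family had 0, 9 and 1 and then none. Counts of the PIF loci were thus confined, among these 9 libraries, to in vitro sperm, at levels where 0 counts in the semi in vivo libraries allow up to 0.0730 to 0.125 CPM each.

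**Figure D5:**
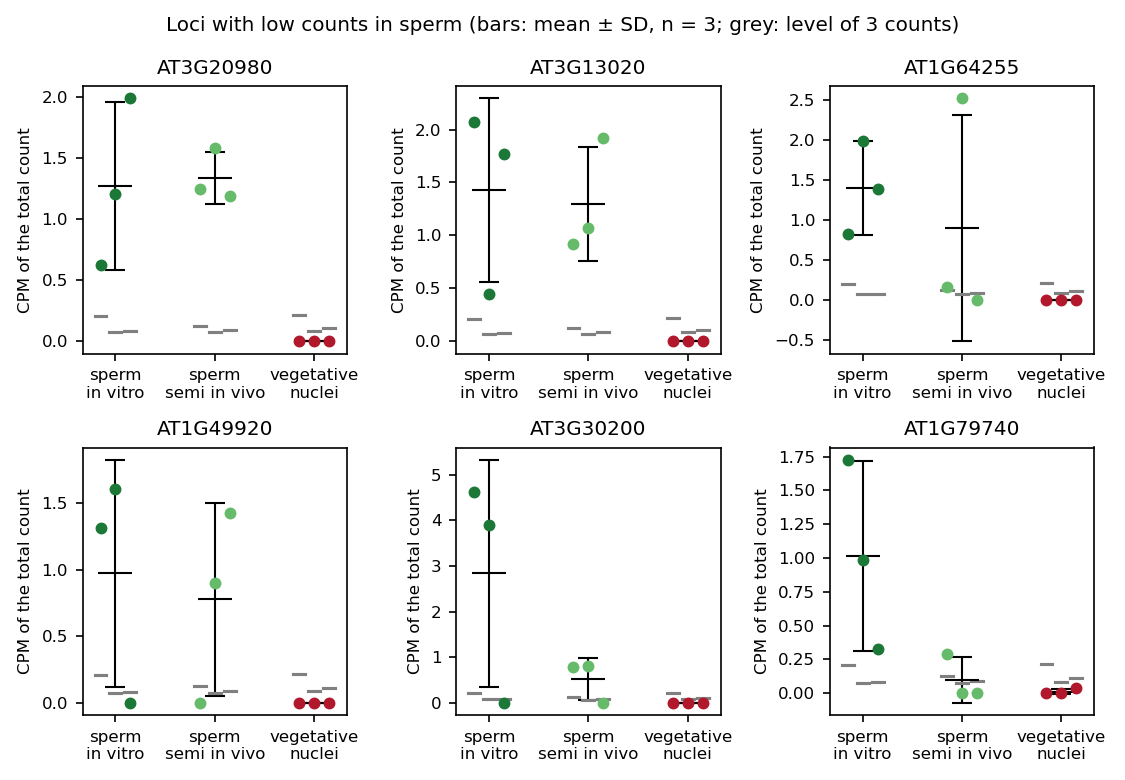
CPM of 6 loci with low counts in sperm, by group; points are libraries in replicate order, bars are the mean and SD (n = 3), and grey ticks are the level of 3 counts in each library. AT3G20980 and AT3G13020 lie above that level in all 6 sperm libraries, the other 4 fall to 0 in at least 1 semi in vivo library, and nuclei are at or near 0.

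The contrast named in the series title is growth through pistil tissue, so semi in vivo sperm were compared with in vitro sperm. Of 14131 loci tested over the whole table, 0.630% were called at an adjusted p under 0.05 (0.538% higher after growth through the pistil and 0.0920% lower). Of the 25 loci, 9 could be tested and 0 were called; edgeR gave 0 at an unadjusted p under 0.05 and DESeq2 called 0. At so low a background, the lack of a call among 9 loci is no result about the set.

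AT3G21000, with the highest counts and so the best precision, stood at 154 ± 46.4 TMM-scaled CPM in in vitro sperm and 127 ± 39.1 CPM in semi in vivo sperm (SD, n = 3), a log2 fold change of -0.27 (SE 0.25, edgeR adjusted p 0.999). AT4G15020 had a log2 fold change of -0.75 (SE 0.45, edgeR adjusted p 0.813) and AT3G22220 of 0.61 (SE 0.51, edgeR adjusted p 0.988). Among the loci with low counts, the log2 fold changes ran from -3.20 for AT1G79740 (SE 2.25) to 0.24 for AT3G20980 (SE 1.14). With standard errors of this size, differences of several fold were not detectable for them. The median over the tested loci of the set was -0.27, beside -0.17 over all loci tested.

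For in vitro sperm against vegetative nuclei, both from tubes grown alike, 14061 loci were tested and 44.9% were called, 30.7% higher in sperm and 14.3% lower. Of the 25 loci, 8 could be tested. Higher in sperm were 5, AT3G21000, AT3G20980, AT3G13020, AT1G64255 and AT1G79740; lower in sperm was 1, AT2G16040; AT4G15020 and AT3G22220 were not called. A locus absent from nuclei could pass the filter only through sperm, and a locus absent from sperm only through nuclei. These counts therefore describe the tested loci and are read no further. The scale itself was not centred: the median log2 fold change of all loci was 1.70 with TMM factors and 1.01 with TMM factors from genes counted in every library.

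The calls differed in how far they depended on the setting. AT3G21000 and AT2G16040 were called in 15 of 15 alternative settings each, with edgeR or DESeq2 adjusted p up to 0.0277 and 0.00649. The settings include the contrast of semi in vivo sperm with the same nuclei, which gave the 0.00649. Keeping a call across settings does not lift the limit set by the filter. The calls of the loci with low counts were lost when single libraries were left out. Without in vitro library 1, the edgeR adjusted p was 0.0683 for AT1G64255, 0.0693 for AT3G13020, 0.0693 for AT3G20980 and 0.0759 for AT1G79740. Without nucleus library 1 these edgeR values were 0.0513, 0.0573, 0.0585 and 0.113, and without nucleus library 3 they were 0.0598, 0.0652, 0.0661 and 0.0820. Without in vitro library 2 the calls of AT1G64255 (edgeR adjusted p 0.0571) and AT3G20980 (0.0575) were lost, and AT1G79740 was not tested; without nucleus library 2 the call of AT1G79740 was lost (0.0733). Without a filter on low counts all 4 were lost as well, at edgeR adjusted p of 0.0728, 0.0716, 0.0771 and 0.151. The direction did not change in any of these fits.

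Semi in vivo sperm were also set against the same nuclei, and 52.6% of 11757 loci were called there, 31.7% higher and 21.0% lower. AT3G21000 had a log2 fold change of 6.95 (SE 1.51, edgeR adjusted p 0.00860) and AT2G16040 of -8.50 (SE 1.71, edgeR adjusted p 0.00649). Against 3 counts over the nuclei, the sperm mean was 62.3-fold higher for AT3G13020 (edgeR adjusted p 0.0150) and 69.7-fold higher for AT3G20980 (0.0148). Neither had counts in nuclei, so both could pass the filter only through sperm. AT4G15020, with TMM-scaled CPM of 7.16 ± 4.72 in sperm against 42.7 ± 19.8 in nuclei (SD, n = 3), was called lower in sperm here, with a log2 fold change of -2.57 (SE 0.80, edgeR adjusted p 0.0292), and AT3G22220 was not called (0.48, SE 0.86, edgeR adjusted p 0.671). Both comparisons share the nucleus libraries, so the second is no independent repeat of the first.

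The genes that silence transposons were read from a list of 39, which holds DNA methyltransferases, small RNA factors and chromatin proteins. Between the sperm groups 33 were tested and 0 were called by edgeR, 2 of them at an unadjusted p under 0.05. Against nuclei, 30 were tested in in vitro sperm, of which 9 were higher, 0 lower and 21 not called, with a median log2 fold change of 3.25 beside 1.70 over all loci tested. The share called higher, 30.0%, was near the 30.7% of all loci tested. In semi in vivo sperm against the same nuclei, 11 of 28 tested were higher, 39.3% against 31.7% of all loci. Nothing particular to the list is read from these shares. The chromatin remodeller DDM1 was at 836 ± 210 TMM-scaled CPM in in vitro sperm and 17.9 ± 1.05 CPM in nuclei (SD, n = 3), a log2 fold change of 5.55 (SE 0.48, edgeR adjusted p 0.000611). The maintenance methyltransferase MET1 was at 644 ± 158 and 4.65 ± 4.57 CPM (SD, n = 3), a log2 fold change of 7.10 (SE 1.21, edgeR adjusted p 0.00499). The others called higher were VIM1, which recruits MET1, the histone deacetylase HDA6, the histone methyltransferase SUVH5 and its relative SUVH2, the Argonautes AGO6 and AGO9 and the remodeller CLSY4. SUVH2 had no counts in nuclei, so it could pass the filter on low counts only through sperm.

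Of the 4 genes for DNA demethylases, which take methylated cytosine out of DNA, 4 were tested between the sperm groups and 0 called by edgeR, with 0 at an unadjusted p under 0.05. Against nuclei 3 were tested in in vitro sperm and 1 was called, 33.3% against the 30.7% called higher over all loci; in semi in vivo sperm against the same nuclei 2 of 3 were called, 66.7% against 31.7%. Called in in vitro sperm was DML3, at 15.8 ± 8.89 TMM-scaled CPM in sperm (SD, n = 3) and without counts in nuclei. That mean was 579-fold above 3 counts over the nuclei (edgeR adjusted p 0.00422). Without counts in nuclei, DML3 could pass the filter on low counts only through sperm. ROS1 was not called in in vitro sperm (edgeR adjusted p 0.0545) but was in semi in vivo sperm (0.0223). Shares of 3 tested genes are read no further. The known domesticated transposase genes DAYSLEEPER, FHY3, FAR1, ALP1, MUG1 and MUG2 were looked for among the 25 loci, and 0 of 6 were there. DAYSLEEPER, FHY3 and FAR1 have descriptions without the word that defined the set, ALP1 has no description in the count table, and MUG1 and MUG2 were not analysed here. ALP1 (AT3G63270) is the best protein match of the PIF locus AT3G55350.

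Sequence likeness runs through the set: 19 of the 25 loci have another of the 25 as their best protein match in the RefSeq annotation. Relatives nevertheless differed in where they were counted. In the Gag-Pol-related pair, AT3G21000 had 2355 to 7396 counts in in vitro sperm and AT3G20980 9 to 73, and only the former had counts in nuclei. Among the hAT loci of the AT4G15020 group, AT4G15020 and AT3G22220 were counted in all 9 libraries and AT1G79740 in 5. Overlaps with another gene were found for 4 of the 25, AT1G79740, AT3G21000, AT3G55350 and AT4G15020, and the gene over the last, AT4G15025, was at 0.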

How the data were processed

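RNA of 6 sperm and 3 vegetative nucleus libraries was analysed from raw counts per locus, which the authors deposited as a single table; per the submitters' processing notes the tools were Trim Galore (trimming), HISAT2 (alignment) and featureCounts (counting per locus), on build TAIR10. Not given in the sources used here are their versions, the strand setting and how reads with several matches were treated. Smart-seq2, per the labels' protocols, amplifies cDNA by PCR, has no molecular identifiers and keeps no strand.

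Each comparison used its own 6 libraries in edgeR 4.0.16 (R 4.3.3): filterByExpr (minimum count 10), TMM factors, a robust quasi-likelihood fit and Benjamini-Hochberg adjustment over all loci tested, threshold 0.05. TMM-scaled CPM are scaled within a comparison, so in vitro sperm values differ between comparisons; other CPM are counts over the library total. Standard errors are the absolute log2 fold change over the root of F. Folds against a group at 0 set the mean of the other group against 3 counts over the group at 0. They leave out the spread of that mean. Alternatives included DESeq2 1.42.0. The procedure was checked on simulated counts, in which only loci with a mean over 5 CPM were changed. The loci of the set with low counts lie below that level, so the recovery given here does not cover them. For in vitro sperm against nuclei (11690 loci), 8 of 99 loci changed by 3 on the log2 scale and 75 of 97 changed by 8 were found; between the sperm groups (11067 loci) these were 99 of 100 and 100 of 100. Single values used exact permutation tests (scipy 1.17.1).

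Named with values were the called loci with at least 1 CPM (up to 12 per direction), the 8 with the largest share of the set's counts in each group and the best of each family; other members are described by their counts. Members were picked by words alone, but the rule for them and the lists were set with earlier results of these data known. Of the 25 loci, 23 were matched in the RefSeq gene table (TAIR10.1); as the counts were made on TAIR10, no coordinates are given, and levels are not compared between loci per length. Marker genes and totals were read per library, and no 2 libraries of a group were near duplicates, with a chi-square of 25.3 to 369 per gene.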

Additional observations from a re-analysis of the deposited data

How the results depend on the processing

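Between the sperm groups 0 of the 25 loci were called in any of the 14 alternatives. For in vitro sperm against nuclei the 6 calls became 3 without a filter on low counts (AT3G21000 and AT2G16040 of the 6, and AT3G30200 at an adjusted p of 0.0430) and 2 with a filter of 5 CPM, which tests fewer loci, and ran from 2 to 8 when each library was left out (2 without in vitro library 1 or nucleus library 3, 3 without in vitro library 2 or nucleus library 1). With RLE, upper-quartile or other TMM factors, DESeq2, 1 fit on all 9 libraries or semi in vivo sperm there were 5 to 7; in the 9-library fit AT3G30200 was gained (adjusted p 0.0352) and AT1G79740 lost (0.0652). Replicate numbers are shared between groups, but same-numbered libraries did not deviate together (r of -0.006, 0.064 and 0.170 between the sperm groups, and 0.023, 0.066 and 0.004 between in vitro sperm and nuclei); with a replicate block the calls were 0 and 5, with AT1G79740 at an adjusted p of 0.112.

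For in vitro sperm against nuclei the 6 called loci did not change sign in any alternative. Differences that were not called could. AT3G13020 between the sperm groups was -0.014 (RLE), -0.067 (upper quartile), -0.020 (TMM from genes counted in every library), -0.0088 (DESeq2) and -0.13 (9 libraries), against 0.04, and -0.42 to 0.42 with a library left out. Left-out ranges were -0.52 to 0.0062 for AT3G21000, -3.84 to 0.12 for AT1G64255, -0.052 to 0.83 for AT3G20980 and -0.90 to 0.57 for AT1G49920. AT3G22220 in in vitro sperm against nuclei was -0.095 (RLE), -0.42 (upper quartile), -0.69 (TMM from genes counted in every library), -0.094 (DESeq2), -1.17 (no filter) and -0.20 (replicate block), and -1.19 to 0.79 with a library left out. The causes were not tested.

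The mean sum of the set in CPM was 190, 138 and 134 in in vitro sperm, semi in vivo sperm and nuclei. With TMM factors of all 9 libraries it was 239, 172 and 86.0, and without AT3G21000 it was 28.3, 20.2 and 132. Nuclei were then highest, which follows from the share AT3G21000 held in sperm. In vitro sperm libraries held 15 of the 25 loci on average, and 11 with at least 10 counts. Over all loci, calls between the sperm groups were 89, but 347 with DESeq2, 150 without a filter, 165 with 5 CPM, 223 with the replicate block, 0 in the 9-library fit (996 at an unadjusted p under 0.05) and 51 without in vitro library 1. Against nuclei, 6320 became 3552 without in vitro library 1. Thinning to the smallest library total moved the mean number of loci found by less than 1 SD in each group.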
